A study of Mus musculus with 9 samples.

Results

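Arc, Npas4, Bdnf, Homer1, Nptx2, Per1, Crem, Sik1, Nfil3 and Gadd45b are genes whose transcription in neurons is known to follow synaptic activity, calcium or cAMP, in several cases through the transcription factor CREB. These 10 genes were taken by symbol from the 23607 genes of the deposited tables, and all 10 were found there. In the study, mRNA bound to ribosomes with phosphorylated S6 (pS6) was immunoprecipitated from the olfactory epithelium (OE) of 9 C57BL/6 mice and sequenced. The mice had spent 1 hr with distilled water (control, n = 3), 1% heptanal (n = 3) or 100% heptanal (n = 3), heptanal being an aldehyde odorant. Each group held 1 mouse of postnatal day 22, 1 of day 21 and 1 of day 18, and by the study's methods the mice of a replication were littermates of the same sex. The labels name no litter, so the mice of 1 postnatal day were taken here as 1 replication. No input RNA or unbound fraction was analysed here, so a level is that of mRNA recovered with pS6 antibody from dissected tissue that holds several cell types.

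In an olfactory sensory neuron (OSN), an odorant bound to its receptor raises cAMP, which opens a cyclic nucleotide-gated channel and lets in calcium. In many neurons cAMP and calcium lead to phosphorylation of CREB, which binds the cAMP response element (CRE) in the promoters of its target genes. The products differ in kind: Arc, Homer1 and Nptx2 act at synapses, Bdnf is a secreted neurotrophin, Npas4, Crem, Nfil3 and Per1 act on transcription, Sik1 is a kinase that restrains CREB coactivators, and Gadd45b is a stress- and activity-induced regulator of growth and demethylation. The comparisons ask which of these mRNAs were recovered in different amounts after exposure to heptanal.

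The letters of the CRE were searched for in the promoters, since the genes were grouped by their link to CREB. RefSeq promoter windows (GRCm38.p6, 250 bases before to 50 after each start site) were matched for 6 of the 10 genes, in 14 windows. Arc, Nptx2, Crem and Sik1 had no matched window. The core letters TGACGT, read on either strand, were found in 1 window each of Homer1, Npas4, Per1 and Bdnf, against 7.51% of the 32851 windows of all genes. The full palindrome TGACGTCA, which contains those letters on both strands, was found in 0 of the 14 windows and in 1.79% of all windows. The stretches upstream of the start site that hold TGACGT are shown 5′ to 3′ on the gene's strand, with TGACGT or its reverse complement ACGTCA in capitals. They lie at chr13:93303686-93303756 (plus strand) for Homer1, chr19:4990120-4990166 (minus strand) for Npas4, chr11:69100005-69100040 (plus strand) for Per1 and chr2:109692385-109692420 (plus strand) for Bdnf.
Homer1: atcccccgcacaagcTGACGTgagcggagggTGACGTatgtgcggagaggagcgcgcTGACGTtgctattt
Npas4: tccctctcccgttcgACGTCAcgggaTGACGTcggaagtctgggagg
Per1: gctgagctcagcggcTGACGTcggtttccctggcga
Bdnf: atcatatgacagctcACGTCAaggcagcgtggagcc
Homer1 held 3 copies, which began 56, 40 and 14 bases before the start site, and Npas4 held 2, at 180 and 169 bases. The single copies of Per1 and Bdnf began at 132 and 36 bases. A match in these letters is a description of the sequence and says nothing of whether CREB was bound there.

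Each mouse had 5438466 to 9707543 estimated counts, scaled here to a common library size (CPM) with TMM factors of 0.947 to 1.06, and a floor of 3 counts lay at 0.309 to 0.552 CPM. PCR copies were not marked by molecular identifiers, so this floor covers counting error only. All 8 markers of mature OSNs that were checked were detected in every mouse. Their summed level was 4900 to 10100 CPM in controls, 7200 to 9720 at 1% heptanal and 12100 to 17200 at 100% heptanal, so the 3 libraries at 100% heptanal stood above all others in these markers. Markers of sustentacular cells, the supporting cells of the OE, summed to 3500 to 5920, 3700 to 6930 and 6070 to 6980 CPM in the same order, and those of erythroid cells to 1080 to 7530, 957 to 7600 and 645 to 4560. Without input RNA, more cells of a type, more of an mRNA per cell and more recovery with pS6 antibody cannot be told apart.

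The genes differed widely in how well they were measured. In controls Nfil3 had the highest level per length of exon, 45.0 ± 20.1 CPM per kb (SD, n = 3), followed by Gadd45b at 14.9 ± 3.81. Crem (7.04 ± 3.97), Nptx2 (6.35 ± 2.82) and Per1 (6.22 ± 1.36) came next and were within each other's spread. Sik1 (2.92 ± 1.98), Arc (1.75 ± 0.502) and Homer1 (1.20 ± 0.645) followed with overlapping spreads, while Bdnf (0.248 ± 0.239) and Npas4 (0.0454 ± 0.0787) were lowest and also lay within their SDs of each other. The cDNA was primed from the poly(A) tail, so reads need not cover the whole exon length and this order is approximate. Total counts over the 9 mice ran from 64 for Bdnf and 84 for Npas4 to 6350 for Nfil3. Bdnf did not pass edgeR's filter on low counts, which left 9 of the 10 genes among the 14930 tested.

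None of the 9 genes tested passed the threshold at either concentration. At 100% heptanal 0 of 9 passed an adjusted p of 0.05 in edgeR's quasi-likelihood test with postnatal day as a block, where 0.322% of all genes tested did (48 genes, all higher). At an unadjusted p below 0.05 there were 2 of 9, Nptx2 and Npas4, both higher, against 10.4% of all genes. Npas4 passed the filter on low counts through its reads in exposed mice and was filtered out when only controls and 100% heptanal were fitted, whereas Bdnf, highest in a control, did not pass, so counts over the 9 genes are descriptions and lend no support to a rise. At 1% heptanal 0 of 9 passed, as did 0% of all genes, and 0 of 9 had an unadjusted p below 0.05, against 3.26% of all genes. The direct comparison of 100% with 1% heptanal gave 0 of 9 as well, against 0.0804% of all genes, with 1 of 9 (Nptx2) at an unadjusted p below 0.05, close to the share among all genes (10.4%). edgeR's likelihood ratio test and DESeq2 also called 0 of these genes at 1% heptanal (0.0938% and 0.0201% of all genes) and between the concentrations (1.51% and 1.41%), and each called 1 at 100% heptanal, described with Nptx2. A p that misses the threshold does not show that a level stayed the same, so the intervals are given for each gene. Both exposed groups were compared with the same 3 controls.

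**Figure D1:**
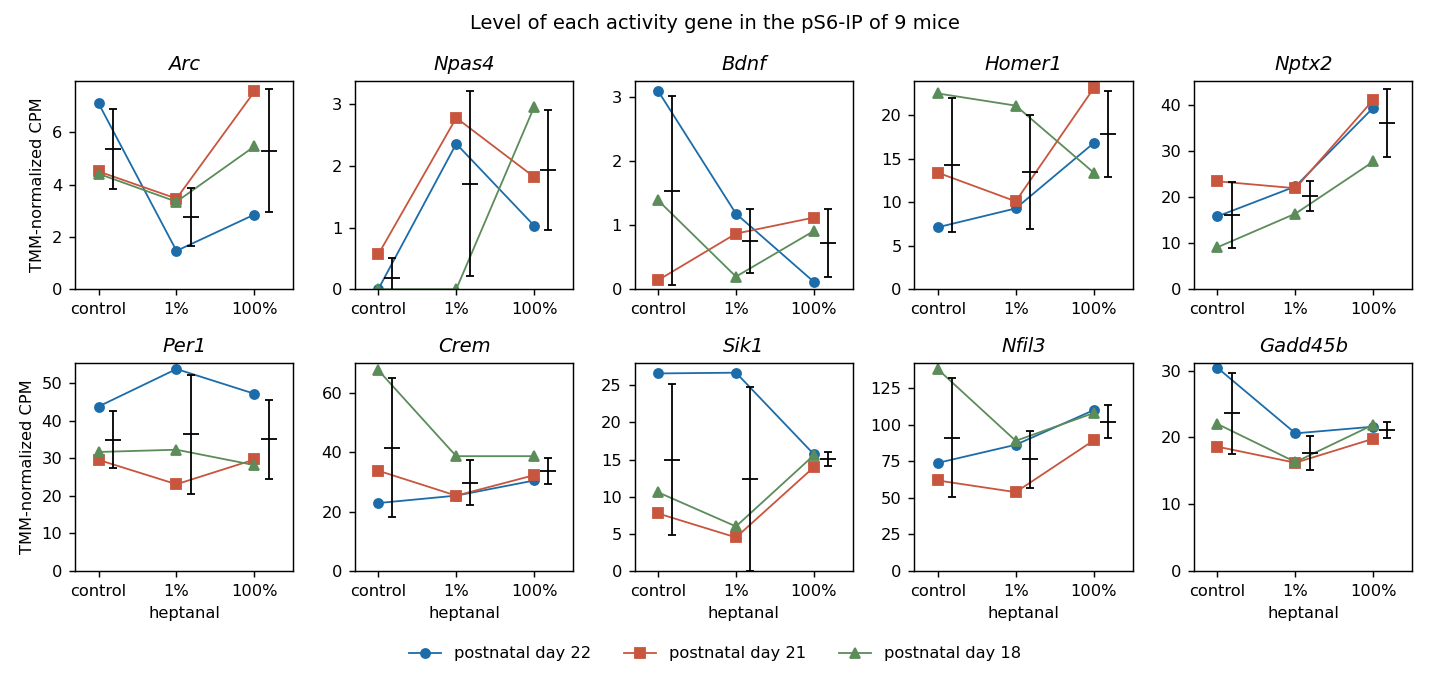
TMM-normalized CPM (y axis, linear, starting at 0) of the 10 genes in each mouse, by heptanal concentration (x axis), with lines joining the 3 mice of each postnatal day and black bars giving the mean ± SD of 3 mice, which are cut at 0. Nptx2 at 100% heptanal lies above all other mice (27.7 to 41.1 CPM), while most of the other genes overlap between groups.

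Among the genes that act at synapses, Nptx2 came nearest to the threshold. It encodes neuronal pentraxin 2, a secreted protein that clusters AMPA receptors at excitatory synapses, and lies at chr5:144545902-144557478 on the plus strand of GRCm38. In controls it had 15.8, 23.4 and 9.10 CPM on days 22, 21 and 18. At 1% heptanal the values were 22.3, 21.9 and 16.4 CPM, and at 100% heptanal 39.4, 41.1 and 27.7. Every mouse at 100% heptanal was above every control and every mouse at 1%, whereas the 1% mice overlapped the controls. Group means (± SD, n = 3) were 16.1 ± 7.15 CPM for controls, 20.2 ± 3.26 for 1% and 36.1 ± 7.32 for 100% heptanal. Against control, 100% heptanal gave a log2 fold change of 1.22 with a standard error of 0.23, a 2.33-fold difference with a 95% interval of 1.63 to 3.34, and the adjusted p of edgeR was 0.0829, the gene being number 89 of 14930 by p. Without postnatal day as a block the log2 fold change was 1.16 and the adjusted p 0.869, in a fit that called 0.0134% of all genes. At 1% heptanal the log2 fold change was 0.40 (95% interval -0.12 to 0.92), and between 100% and 1% it was 0.82 (0.31 to 1.33, adjusted p = 0.296 by edgeR).

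Nptx2 passed the threshold under other tests of the same counts. It was the 1 of these genes called by edgeR's likelihood ratio test (adjusted p = 0.00114), by DESeq2 (adjusted p = 0.0047) and by the quasi-likelihood test on the 6 mice of the 2 groups alone (adjusted p = 0.0367). Those settings called 1.99%, 1.78% and 1.14% of all genes, in place of 0.322%. The last 2 settings covered 8 of the genes, without Npas4, for which DESeq2 gave no adjusted p.

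Nptx2 moved with Omp and several other mature OSN markers from mouse to mouse. The sum of Omp, Adcy3, Ano2, Cnga2 and Gnal, which encode the olfactory marker protein and parts of the odorant transduction cascade, was 5870, 8710 and 4240 CPM in controls on days 22, 21 and 18. It was 6860, 8480 and 6150 CPM at 1% and 11800, 14900 and 10600 at 100% heptanal, 2.04 times control as a mean over days. Omp made up most of this sum, with means of 4760, 5710 and 9980 CPM at the 3 concentrations from control to 100%, so the sum and any scaling by it follow Omp. Per 1000 CPM of these 5 markers, Nptx2 had 2.69, 2.68 and 2.15 CPM in controls, 3.25, 2.58 and 2.67 at 1% and 3.35, 2.76 and 2.62 at 100% heptanal. These ratios overlapped between the groups, though on each day the ratio at 100% heptanal was above that of the control of that day. When libraries were scaled by the 5 markers in the test, the log2 fold change of Nptx2 at 100% heptanal was 0.21 (95% interval -0.34 to 0.75, adjusted p = 0.464 by edgeR). This value restates the ratios above and is no separate evidence. The scaling also moved the median log2 fold change of all genes to -1.04 and called 65.3% of them, so Nptx2 stayed above that median.

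**Figure D2:**
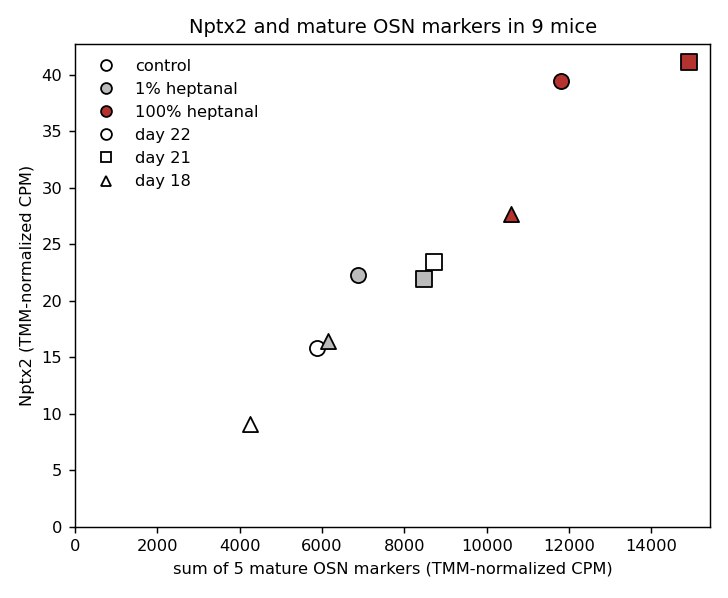
Nptx2 (y axis) against the sum of 5 mature OSN markers (x axis), both in TMM-normalized CPM on linear axes from 0, with 1 point per mouse, fill by group and shape by postnatal day. The 3 mice at 100% heptanal lie highest on both axes (27.7 to 41.1 CPM of Nptx2 and 10600 to 14900 CPM of the markers), along the same course as the other mice.

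The genes whose levels followed Nptx2 most closely were also genes of OSNs in part. Over the 9 mice, after centring log2 CPM on each postnatal day, the highest Pearson correlations among 14924 genes were those of Stoml3 (r = 0.997), 2810468N07Rik (0.990), Olfr554 (0.989), Omp (0.989) and Nsg1 (0.985). Stoml3 and Omp are markers of mature OSNs, and Olfr554 is an olfactory receptor gene. Of the other markers in the sum, Ano2 (0.913), Gnal (0.901) and Adcy3 (0.850) followed it less closely and Cnga2 (0.533) least. The other 9 activity genes had correlations with Nptx2 from -0.442 (Bdnf) to 0.617 (Npas4). All values of a mouse share its library and scaling, and these correlations are a description. Since these 5 genes were chosen for their likeness to Nptx2, their log2 fold changes at 100% heptanal (1.11 for Omp to 1.86 for Olfr554) are given with no test.

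Arc, the immediate early gene for a protein of the postsynaptic density, had few reads and did not differ at 100% heptanal beyond its spread. It lies at chr15:74669083-74672570 on the minus strand. Arc had 7.12, 4.51 and 4.42 CPM in controls, 1.47, 3.47 and 3.35 at 1% and 2.86, 7.57 and 5.47 at 100% heptanal on days 22, 21 and 18. All 3 mice at 1% heptanal were below all 3 controls, a pattern that 1.64% of all genes tested had, while the mice at 100% overlapped both other groups. Its log2 fold change at 1% was -1.05 (95% interval -2.27 to 0.18, adjusted p = 1 by edgeR) and that at 100% was -0.14 (-1.32 to 1.05, adjusted p = 0.963). The within-day log2 ratio at 1% was -1.95 on day 22, but -0.33 and -0.36 on days 21 and 18.

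Homer1, which encodes a scaffold that links metabotropic glutamate receptors to internal calcium stores, varied widely between the mice of each group. No order of the days was shared by all groups. It lies at chr13:93299635-93405129 on the plus strand. Its levels were 7.12, 13.4 and 22.5 CPM in controls, 9.29, 10.1 and 21.1 at 1% and 16.8, 23.1 and 13.4 at 100% heptanal. It was higher at 100% heptanal than in the control of the same day on days 22 and 21 and lower on day 18, and the groups overlapped. This gave a log2 fold change of 0.47 (95% interval -0.42 to 1.37) at 100% and -0.05 (-0.94 to 0.83) at 1% heptanal. The counts are for the gene as a whole, so the short activity-induced isoform Homer1a cannot be told apart from the long forms.

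Bdnf, the secreted ligand of the receptor TrkB, was close to the floor. It lies at chr2:109674700-109727007 on the plus strand. It had 20, 1 and 11 counts in controls, 8, 5 and 2 at 1% and 1, 8 and 8 at 100% heptanal on days 22, 21 and 18. The groups overlapped, with means of 1.54 ± 1.48, 0.748 ± 0.502 and 0.716 ± 0.531 CPM (SD, n = 3 each), and Bdnf had no test in the main fit. Without the filter on low counts all 10 genes were tested and 0 passed at 100% heptanal against control. That fit called 74 of all genes higher and 2 lower. With so few counts a change could have been missed.

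Npas4, a transcription factor induced by calcium entry and largely restricted to neurons, was at or near 0 in controls. It lies at chr19:4984355-4990316 on the minus strand. Its counts were 0, 4 and 0 in controls, 16, 16 and 0 at 1% and 9, 13 and 26 at 100% heptanal on days 22, 21 and 18. A count of 0 allowed up to 0.469 CPM in the control of day 22, 0.363 in that of day 18 and 0.309 in the 1% mouse of day 18. Every mouse at 100% heptanal was above every control (1.03 to 2.96 against 0 to 0.564 CPM), whereas the 1% mouse of day 18 was at 0 like its control. The fitted log2 fold change at 100% heptanal was 3.79 with a 95% interval from 0.12 to 7.47 (unadjusted p = 0.0443, adjusted p = 0.461 by edgeR), and it depends on the prior count since 2 of 3 controls had no reads. It was 6.82 without the control of day 21, the one control with reads, and 2.36 without the 100% mouse of day 18. At 1% heptanal it was 3.10 (-0.52 to 6.72) and went from 1.92 to 6.27 as single mice or days were left out, and between 100% and 1% it was 0.70 (-2.52 to 3.91).

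Npas4 and Nptx2 were the 2 of 9 genes that were higher at 100% heptanal on all 3 days and had no overlap with controls. For Npas4 the filter on low counts fixes this in part. Of all genes tested, 18.4% were higher on all 3 days and 5.96% had every mouse at 100% above every control. With 84 and 1665 reads over the 9 mice, these 2 genes rest on very different depths.

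Of the 2 genes with a direct link to cAMP signalling, Crem encodes a family of CREB-like factors that includes the inducible repressor ICER, and Sik1 a kinase that keeps CREB coactivators out of the nucleus. Crem, at chr18:3266048-3337748 on the minus strand, had 22.9, 33.8 and 67.7 CPM in controls, 25.4, 25.4 and 38.7 at 1% and 30.5, 32.3 and 38.7 at 100% heptanal. The control of day 18 was the highest of the 9 mice, and the groups overlapped. The log2 fold change of Crem was -0.18 (95% interval -0.72 to 0.37) at 100% and -0.39 (-0.94 to 0.15) at 1% heptanal. As with Homer1, a gene-level count does not separate ICER from the other forms, and exons of Crem overlap the gene Gm6225, also in the tables.

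Sik1, at chr17:31844250-31855804 on the minus strand, had 26.6, 7.75 and 10.6 CPM in controls, 26.7, 4.52 and 6.00 at 1% and 15.7, 14.0 and 15.6 at 100% heptanal. The 3 mice at 100% were alike, whereas in the other groups the mouse of day 22 was far above its group mates. Against control, the log2 fold change was 0.31 (95% interval -0.67 to 1.28) at 100% and -0.44 (-1.41 to 0.54) at 1% heptanal. Of the reads of Sik1, 7.03% were assigned by the authors' rescue scheme for reads with several matches, against at most 0.3% for the other genes.

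Per1, a repressor of the circadian clock with a CRE-driven response to stimuli, had nearly the same mean level in all 3 groups. It lies at chr11:69095217-69109960 on the plus strand. Per1 had 43.8, 29.6 and 31.7 CPM in controls, 53.8, 23.1 and 32.3 at 1% and 47.2, 29.7 and 28.2 at 100% heptanal. The mouse of day 22 was the highest of its group in all 3 groups. Its log2 fold change at 100% heptanal was -0.02, and the 95% interval of -0.45 to 0.41 leaves room for a level between 0.733 and 1.33 times that of controls. At 1% heptanal the interval was -0.47 to 0.47 around 0.00029.

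Nfil3, a leucine zipper repressor related to the clock output genes, had the highest level per length of the 10. It lies at chr13:52967209-52981073 on the minus strand. It had 73.9, 61.9 and 138 CPM in controls, 86.3, 53.9 and 89.0 at 1% and 110, 89.3 and 108 at 100% heptanal. All 3 mice at 100% were above all 3 at 1%, by a small margin at the nearest (89.3 against 89.0 CPM), but both groups overlapped the controls, among which the mouse of day 18 was the highest of all 9. Against control, the estimate was 0.24 on the log2 scale (95% interval -0.23 to 0.70) at 100% and -0.22 (-0.69 to 0.25) at 1% heptanal, and 0.46 (-0.01 to 0.92, adjusted p = 0.489 by edgeR) between the concentrations.

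Gadd45b, at chr10:80930073-80932204 on the plus strand, had 30.4, 18.6 and 22.0 CPM in controls, 20.6, 16.2 and 16.3 at 1% and 21.6, 19.8 and 21.9 at 100% heptanal. It was lower at 1% heptanal than in the control of the same day on all 3 days, though the groups overlapped across days. It had a log2 fold change of -0.40 at 1% (95% interval -0.87 to 0.07, adjusted p = 1 by edgeR) and -0.14 at 100% heptanal (-0.61 to 0.33).

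Read together by day, Arc and Gadd45b were the 2 of 9 genes lower at 1% heptanal on all 3 days, against 11.7% of all genes tested. Between 100% and 1% heptanal, 5 of 9 genes (Arc, Nptx2, Crem, Nfil3 and Gadd45b) were higher at 100% on all 3 days, against 16.9% of all genes, and Nptx2 and Nfil3 did not overlap between these groups, as 4.74% of all genes did. Crem differed by a log2 ratio of 0.0016 on day 18. The median log2 fold change of the 9 genes was 0.24 at 100% against control, -0.22 at 1% against control and 0.53 between the concentrations, where those of all genes were -0.0022, -0.01 and 0.02. The first and last of these comparisons share the 100% mice and the last 2 the 1% mice, while the first 2 share the controls, so they are not separate evidence.

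**Figure D3:**
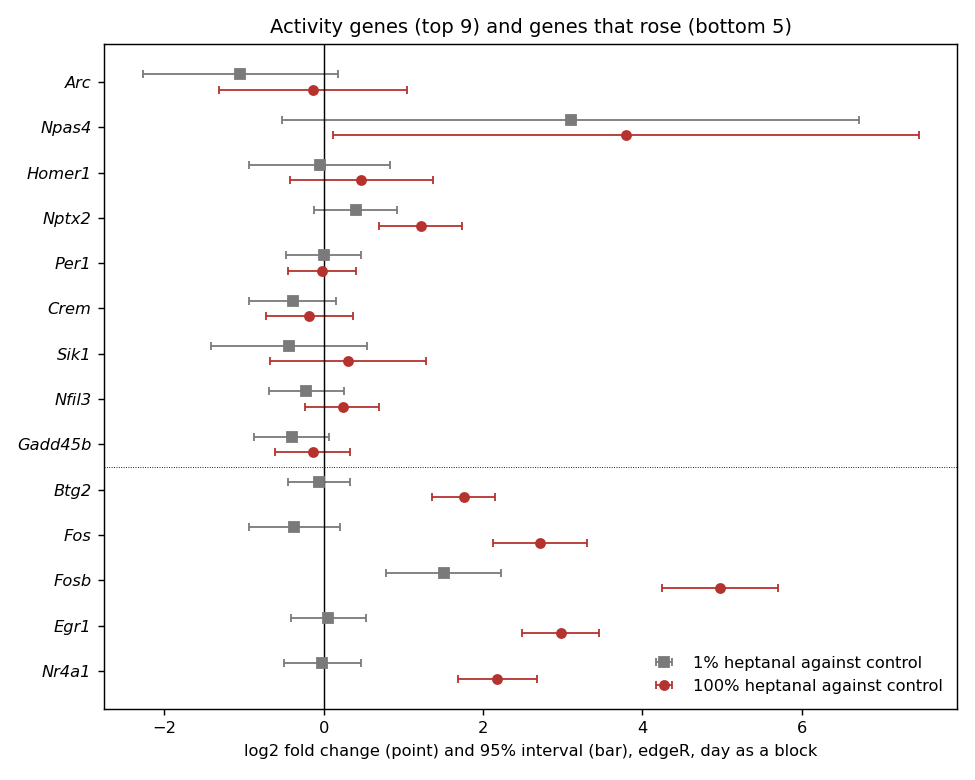
Log2 fold change against control (x axis, points) with its 95% interval (bars) from edgeR with postnatal day as a block, for the 9 activity genes tested (above the dotted line) and 5 other genes that rose at 100% heptanal (below it), at 1% (grey squares) and 100% heptanal (red circles). At 100% heptanal the intervals of 7 of the 9 activity genes include 0. Fos, Fosb, Egr1, Nr4a1 and Btg2 were picked because they passed the test in this fit. That their intervals lie above 0 (starting at 1.36 or higher) follows from that choice and is no comparison of gene groups.

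Immediate early genes of other families rose in the same mice. In the AP-1 family of transcription factors 2 of 7 genes passed the test at 100% heptanal, where 0.322% of all genes did, with log2 fold changes of 4.98 ± 0.32 (SE) for Fosb and 2.72 ± 0.26 for Fos, and edgeR's adjusted p of 0.00136 and 0.0068. Fos had 51.3, 28.3 and 64.5 CPM in controls and 335, 226 and 368 at 100% heptanal, with no overlap. Of the EGR and NR4A factors 2 of the 5 tested rose, Egr1 (2.98, adjusted p = 0.00136) and Nr4a1 (2.18, adjusted p = 0.00695), with Egr3 and Nr4a3 too low to test. The other AP-1 genes and the other 3 EGR and NR4A genes tested did not pass the quasi-likelihood test. The likelihood ratio test and DESeq2, which called 1.99% and 1.78% of all genes, each also called Junb and Nr4a2 as higher. By the quasi-likelihood test Junb had a log2 fold change of 0.99 (adjusted p = 0.0697) and Nr4a2 one of 1.10 (adjusted p = 0.217). Without postnatal day as a block, which called 0.0134% of all genes, Fosb alone of Fos, Fosb, Egr1 and Nr4a1 passed the test (adjusted p = 0.00398 by edgeR). Fos, Egr1 and Nr4a1 then had adjusted p of 0.121 to 0.145. When libraries were scaled by the 5 OSN markers, Fos (1.65), Fosb (3.97), Egr1 (1.91) and Nr4a1 (1.13) still passed the test as higher, with adjusted p from 0.000824 to 0.00478 by edgeR. This scaling called 65.3% of all genes, 48 higher and 9694 lower. Under it Junb (-0.05) and Nr4a2 (0.06) did not pass the test, and Jund (-0.58) passed it as lower.

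Among other activity-regulated and CREB-target genes, 40 were listed and 33 were tested. Of these 1 rose at 100% heptanal, against 0.322% of all genes, the antiproliferative gene Btg2, at 1.76 ± 0.17 (SE) on the log2 scale with an adjusted p of 0.00695 by edgeR (0.145 without the block). Gem, a small GTPase that inhibits calcium channels, had a log2 fold change of 1.69 (adjusted p = 0.177) and Ier2 one of 0.66 (adjusted p = 0.346). The likelihood ratio test and DESeq2 each called 2 of the 33, Btg2 and Gem, against 1.99% and 1.78% of all genes. The median log2 fold change of these 33 genes was 0.04. It was 0.99 for the 7 AP-1 genes and 2.18 for the 5 EGR and NR4A genes.

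No relative or partner of the 10 genes and no gene of the CREB machinery passed the test at 100% heptanal. Of 22 paralogues, receptors and partners, such as Homer2, Per2, Sik2 and the TrkB gene Ntrk2, 19 were tested and 0 passed in edgeR's quasi-likelihood test, with a median log2 fold change of -0.23, and 1 had a higher and 3 a lower level at an unadjusted p below 0.05, which 10.4% of all genes had. Those with the lowest p were Hlf (0.76, adjusted p = 0.246), a clock output factor, Sik3 (-0.39, adjusted p = 0.393) and Gadd45g (-0.45, adjusted p = 0.393). Of 24 genes for CREB, its coactivators and the kinases upstream, 23 were tested and 0 passed (1 at an unadjusted p below 0.05), with a median of 0.03 and a range from -0.38 to 0.45. Prkaca, the catalytic subunit of protein kinase A, had the lowest p (0.30, adjusted p = 0.479). Creb1, the gene of CREB itself, was low in every mouse of day 22 (4.42 to 12.9 CPM), against 41.7 to 81.5 CPM on days 21 and 18. This was not particular to Creb1, as Atf2 had 5.01 to 26.3 CPM on day 22 and 54.0 to 91.2 on the other days. The sample titles of day 22 start with YJC and those of days 21 and 18 with YJE. Age and whatever these titles stand for cannot be told apart. The likelihood ratio test and DESeq2 also called 0 genes of either list at 100% heptanal against control. Between 100% and 1% heptanal each called 1 gene of these lists, Hlf, as higher, against 1.51% and 1.41% of all genes. By the quasi-likelihood test its log2 fold change there was 0.84 (adjusted p = 0.27). At 1% heptanal 0 genes of any list passed the quasi-likelihood test or DESeq2, and the likelihood ratio test called 1, Fosb (log2 fold change 1.51, adjusted p = 1 by the quasi-likelihood test, unadjusted p = 0.00113 by edgeR).

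**Figure D4:**
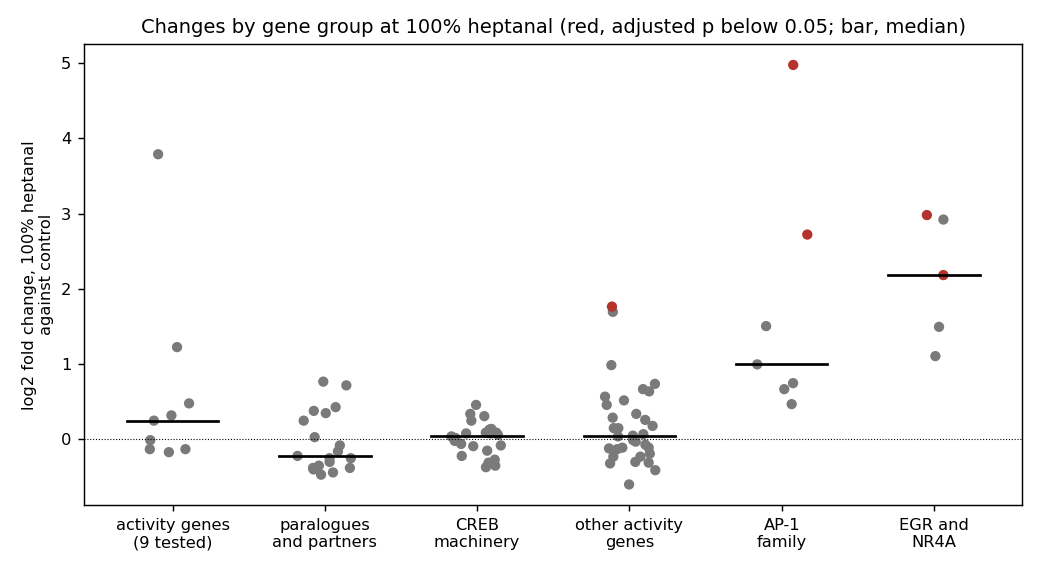
Log2 fold change at 100% heptanal against control (y axis) of every gene tested in 6 lists (x axis), with 1 point per gene, red where the adjusted p of edgeR was below 0.05, and a bar at the median of each list. No red point lies among the 9 activity genes, and the 5 red points are in the last 3 lists, whose medians are 0.04, 0.99 and 2.18.

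The direction of several genes turned with the scaling of the libraries. With libraries scaled by the 5 OSN markers and postnatal day as a block, 4 of 9 genes were called lower at 100% heptanal, Per1 (-1.05), Crem (-1.22), Nfil3 (-0.81) and Gadd45b (-1.18), with adjusted p from 0.00386 to 0.0245 by edgeR. This scaling moved the median of all genes to -1.04 and called 65.3% of them, so the 4 genes are near the centre of all genes there. Under it Homer1 and Sik1 also lay below 0 (-0.55 and -0.73) without passing the test. With TMM factors none of these 6 genes passed the test.

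Markers of brain neurons, in which Arc, Npas4, Bdnf, Homer1 and Nptx2 are best known, were low in every library. The 8 listed, which mark excitatory, inhibitory and dopaminergic neurons of the olfactory bulb and cortex, summed to 21.3 to 31.6 CPM in controls, 15.5 to 26.2 at 1% and 17.5 to 47.1 at 100% heptanal. None of the 8 was at 0 in all mice, and Slc32a1 and Tbx21 were too low to test. Their part in the levels of the activity genes was not tested.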

How the data were processed

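pS6-IP RNAseq was performed by the authors on the OE of 9 mice, from cDNA primed with poly-T, amplified and sequenced from 1 end. According to the methods and the submitters' processing notes, reads were aligned to mm10 with Bowtie and counted on genes with BEDTools. Versions and strand use are not given in the sources used here. The authors deposited a headerless table per mouse, whose columns were identified from their values: counts of reads taken as uniquely mapped, and estimated counts (column 21), in which reads with several matches (23.9% to 30.5%) were shared out. The deposited expected counts are not normalized; they were rounded to whole numbers. The 18 columns between them were not used.

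In R 4.3.3, 1 model of all 9 mice was fitted in edgeR 4.0.16 (filterByExpr with a minimum count of 10 and total of 15, TMM, glmQLFit and glmQLFTest) with group and postnatal day. Benjamini-Hochberg adjustment covered all 14930 genes tested, and the threshold was 0.05. The authors name edgeR but no design. Days were used as a block because the methods pair littermates and each day held 1 mouse of each group. The labels name no litter. Deviations from group means correlated in all 9 same-day pairs (r = 0.165 to 0.745, mean 0.555). Centring on group means makes the correlation of the 18 other pairs negative (mean -0.261), so it adds nothing. Mice of 1 group differed by more than sampling noise. Within-day ratios used a pseudocount of 0.5 CPM. 3 pairs allow no exact sign-flip p below 0.25, so none is given.

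The 10 genes were always named, with at most 3 genes of each further list by p and the 5 genes most correlated with the gene of lowest p (mean of at least 1 CPM). Some others, such as Creb1, Atf2 and Jund, are named for their levels or direction. The genes and lists were chosen with earlier results of these data known. Loci and exon lengths came from GENCODE M21 (GRCm38) and promoter windows from RefSeq. Alternatives were the fit without the block, the likelihood ratio test, DESeq2 1.42.0, other scalings, filters and samples. The fit was tested on simulated data. Tables and plots used pandas 2.3.3, scipy 1.17.1 and matplotlib 3.10.9.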

Additional observations from a re-analysis of the deposited data

How the results depend on the processing

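Of 472 values computed under other settings, 427 kept their direction and their side of the threshold. The number of genes called at 100% heptanal went from 0 to 1 (Nptx2) with edgeR's likelihood ratio test, DESeq2 or the 2 groups alone (log2 fold change 1.22, 1.21 and 1.24). DESeq2 and the fit of the 2 groups alone covered 8 of the 9 genes, without Npas4. The number went to 4 when libraries were scaled by 5 OSN markers with the replicate block. That scaling also called 1 of the 9, Per1, as lower at 100% than at 1% heptanal. There it called 78 of all genes higher and 6613 lower, with a median log2 fold change of -0.765, so this call is not particular to Per1. The cause of the first change was not tested. Without the replicate block 0 of the 9 genes were called in any comparison, in a fit that called at most 2 of all genes in each. Per1 at 100% heptanal was then at 0.0012 in place of -0.02. Scaling by OSN markers reversed Homer1 (-0.55), Sik1 (-0.73) and Nfil3 (-0.81) at 100% heptanal, and with no replicate block, a setting chosen after seeing the data, they were at -0.92, -1.08 and -1.03. Per1 at 1% heptanal, at 0.00029, turned to -0.25 and -0.21 under these 2 scalings and to -0.01 with only the 2 groups. Leaving out 1 mouse or 1 day at a time gave 0 of the 9 genes called throughout, in fits that called few of all genes. At 100% heptanal against control these called from 1 gene (without the control of day 22) to 62 higher and 3 lower (without the 1% mouse of day 22). They called 0 of all genes at 1% heptanal and from 0 to 33 between the concentrations, so 0 of the 9 is no sign of a stable level. The log2 fold changes at 100% heptanal were -0.58 to 0.53 for Arc, 2.36 to 7.37 for Npas4, 0.09 to 0.99 for Homer1, 0.06 to 0.56 for Nfil3, -0.12 to 0.06 for Per1, -0.46 to 0.16 for Crem, -0.08 to 0.84 for Sik1 and -0.25 to 0.03 for Gadd45b. At 1% heptanal they were -1.41 to -0.39 for Arc, 1.92 to 6.27 for Npas4, 0.19 to 0.68 for Nptx2, -0.64 to -0.09 for Crem, -1.07 to -0.19 for Sik1, -0.50 to -0.27 for Gadd45b, -0.36 to 0.29 for Homer1, -0.16 to 0.17 for Per1 and -0.44 to 0.06 for Nfil3. Nptx2 at 100% heptanal stayed between 1.04 and 1.48, with a lowest adjusted p of 0.0794 by edgeR. Over all genes, 48 were higher and 0 lower at 100% heptanal, against 249 and 48 with the likelihood ratio test, 230 and 36 with DESeq2, 152 and 13 with the 2 groups alone, 48 and 9694 with OSN scaling, 74 and 2 without the filter on low counts, 28 and 0 with library totals alone, and 2 and 0 without the replicate block. Depth limits Bdnf and Npas4, at 64 and 84 reads in all.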
